A study of Mus musculus with 6 samples.

Results

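The expression of 8 genes that mark the neural crest and the Schwann cell lineage was followed in the RNA-seq libraries of neural progenitor cells (NPCs) from wildtype and Ybx1-KO embryos. Ybx1 is a Y-box protein that binds DNA and RNA. The 8 genes were taken as a named list, 8 of the 51733 gene symbols in the count tables, and all 8 were found. They are the transcription factors Sox8, Sox10, Foxd3, Tfap2a, Tfap2b and Snai2 and the receptors Erbb3 and Ednrb.

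Mouse embryos (strain C57BL/6 in the labels) were taken at E13.5, NPCs were sorted for Sox2 from their neural tubes, and total RNA of the sorted cells was sequenced. The 3 libraries labelled wildtype are called control 1 to 3 and the 3 labelled YBX1KO are called Ybx1-KO 1 to 3. The Ybx1-KO embryos were homozygous for the null allele Ybx1 tm1Ley, which is carried in the germline and so is not limited to NPCs, and such embryos can have an open brain (exencephaly). The sort used a Sox2-eGFP allele that embryos of both genotypes carried, and the study describes the controls as siblings. The titles of controls 1 and 2 share a number, as do those of Ybx1-KO 1 and 2, and what the number stands for is not given. Nothing in the labels says whether the libraries of a group came from separate embryos, so p-values measure only the spread between these libraries.

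Counts on genes came to 20841990, 23883542 and 21574427 in controls 1, 2 and 3, and in Ybx1-KO 1, 2 and 3 to 8483075, 13321952 and 4743279. Ybx1-KO 3 stood apart, with 59.5% of its read pairs outside genes and 7.22% on genes, against at most 46.7% outside and at least 18.0% on genes in the other libraries. Counts fell on 39553 different genes there and on no more than 30482 in any other library. The differences of the 8 genes are therefore also given without it. The deleted gene was examined first. Ybx1, at chr4:119277981-119294604 on GRCm38, had 239, 531 and 306 CPM in the controls, where CPM is a count scaled to a common library size, after adjustment by TMM factors (the trimmed mean of M values). In Ybx1-KO 1, 2 and 3 it had 126, 55.3 and 9.66 CPM, each below every control, and counts of the gene remained in all 3. The counts are per gene and do not show which exons they fell on, so the level does not check the deletion itself. Its log2 difference was -2.49 (SE 0.675, edgeR adjusted p = 0.301).

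The neural crest arises at the dorsal edge of the neural tube, leaves it, and forms peripheral neurons and glia, pigment cells and much of the facial skeleton. Tfap2a and Tfap2b help to set up the crest territory, Foxd3 and Snai2 act as the crest is specified and leaves the epithelium, and Sox10 with its relative Sox8 holds the glial and pigment lineages. Erbb3 receives the axonal growth signal neuregulin in Schwann cell precursors, and Ednrb binds endothelin 3 in migrating crest. Several of the 8 have other sources in a neural tube. Sox10 and Sox8 also mark oligodendrocyte precursors, Ednrb is expressed in radial glia, and Tfap2a and Tfap2b are expressed in dorsal inhibitory neurons. Sox2 itself, the gate of the sort, is also expressed in glial precursors derived from the crest. Fewer cells of a type and less RNA per cell cannot be told apart in these bulk samples.

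Promoter sequence was at hand for 5 of the 8 genes, from RefSeq on GRCm38.p6, and Sox10, Snai2 and Erbb3 had none. The 250 bases before the start site are shown for Foxd3, whose groups lay furthest apart, and for Ednrb, whose groups overlapped. Capitals mark CpG dinucleotides, which gather at the starts of many developmental genes. The first window lies at chr4:99656049-99656298 on the plus strand and the second at chr14:103843702-103843951 on the minus strand.
Foxd3: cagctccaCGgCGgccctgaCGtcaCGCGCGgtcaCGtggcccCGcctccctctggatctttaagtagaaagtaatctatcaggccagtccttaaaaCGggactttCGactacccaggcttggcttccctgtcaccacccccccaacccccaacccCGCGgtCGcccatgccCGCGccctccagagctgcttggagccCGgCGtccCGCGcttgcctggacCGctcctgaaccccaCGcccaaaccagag
Ednrb: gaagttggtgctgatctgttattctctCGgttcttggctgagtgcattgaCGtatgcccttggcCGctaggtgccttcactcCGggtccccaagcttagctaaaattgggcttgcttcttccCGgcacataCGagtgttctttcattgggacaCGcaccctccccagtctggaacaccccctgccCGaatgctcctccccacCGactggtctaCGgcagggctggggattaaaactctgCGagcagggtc

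The Foxd3 window held 21 CpGs, more than 83.7% of the 32851 promoter windows of this length, and the Ednrb window held 11, more than 64.4%. Among the other windows, Sox8 had 18 CpGs, each of the windows at a pair of Tfap2a starts had 10 and Tfap2b had 5, against a median of 6 over all windows. The words searched on both strands were the Y-box CTGATTGG, its core CCAAT, the AP-2 word GCCNNNGGC, the Snail word CACCTG and the Sox word ACAAAG. The core is contained in the Y-box word, on the opposite strand. Ednrb held the core in reverse 146 and 106 bases before its start and the AP-2 word at 195 bases. No other of these words occurred in any of the 6 windows. The Y-box was found in 3.83% of all windows, its core in 33.9%, the AP-2 word in 13.7%, the Snail word in 17.2% and the Sox word in 16.5%. These matches describe the letters only.

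Ybx1-KO and control NPCs were then compared gene by gene, to ask whether the crest and Schwann genes differed in level between the genotypes. A gene was called where the adjusted p of edgeR's quasi-likelihood test was under 0.05 and the fold change over 1.5. Of the 21328 genes tested 0 were called, a share of 0% in either direction, and so 0 of the 8 lineage genes were called. The smallest adjusted p that edgeR gave any gene was 0.167. At an unadjusted p below 0.05, 1484 genes were higher in Ybx1-KO NPCs, or 6.96%, and 909 were lower, or 4.26%. Of the 8 lineage genes, Foxd3, Erbb3 and Sox10 were on the higher side of that limit and 0 on the lower. This tally is no evidence on the list, since Foxd3 could be tested only because it was higher in Ybx1-KO NPCs, as described below. The log2 fold change of Sox10 was 0.011 without Ybx1-KO 2. Limma-voom, the tool of the study, called 0 genes as well in this re-analysis, with 756 higher and 899 lower at an unadjusted p below 0.05. The study itself, with that tool and these thresholds, reports genes called in both directions. The legend of its volcano plot names more control samples than its text does, so the samples compared may not be the same. DESeq2 called 118 genes higher and 96 lower, Foxd3 among the former. All differences below are log2 fold changes of Ybx1-KO over control NPCs from edgeR, with their standard errors (SE) and p-values adjusted over all genes tested.

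Foxd3, at chr4:99656299-99658622, had the widest difference of the 8 genes. Its level was 0.911, 4.31 and 0.610 CPM in controls 1, 2 and 3 and 29.3, 17.7 and 8.38 CPM in Ybx1-KO 1, 2 and 3. All 3 Ybx1-KO libraries lay above all 3 controls, an arrangement found at 4.98% of the genes tested, and the exact permutation test (two-sided) gave p = 0.1, which is as small as it can be with 3 libraries a group. The mean was 1.94 ± 2.05 CPM (SD, n = 3) in the controls and 18.4 ± 10.5 CPM (SD, n = 3) in the Ybx1-KO group, a difference that did not pass the adjusted threshold. The log2 difference was 3.24 (SE 0.739, edgeR adjusted p = 0.208), which placed Foxd3 44th among all genes tested by unadjusted p. Controls 1 and 3 held only 19 and 12 counts, for which exact 95% Poisson intervals reached from 0.549 to 1.42 and from 0.315 to 1.06 CPM. The interval of control 2, 3.47 to 5.28 CPM, lay above both and ended below that of Ybx1-KO 3, 6.38 to 10.8 CPM. These intervals cover counting error only, since the reads carry no molecular identifiers.

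Foxd3 entered the test through the Ybx1-KO group alone. The filter asked for a mean above 1 FPKM (CPM, on the unscaled library total, per kilobase of exon) in at least one genotype. Foxd3 had 0.763 ± 0.778 FPKM (SD, n = 3) in the controls against 7.98 ± 4.43 FPKM (SD, n = 3) in the Ybx1-KO group, so it had to differ in order to pass. The other 7 genes passed in both groups. The call on Foxd3 depended on the libraries and the tool. By edgeR its adjusted p was 0.039 without Ybx1-KO 3 (log2 difference 3.59), 0.0094 without Ybx1-KO 2 (3.27) and 0.0070 without control 2 (4.58). It was 0.086 without Ybx1-KO 1, 0.670 without control 1 and 0.639 without control 3 in the same edgeR test. On all 6 libraries it was 0.0096 by DESeq2 and 0.00069 by edgeR with no filter on low counts, and both called it. It was not called by limma-voom (adjusted p = 0.279), by edgeR with a filter on CPM above 1 (0.374), by edgeR on protein-coding genes alone (0.283), or by edgeR with the CPM filter and without Ybx1-KO 3 (0.286), the last chosen after seeing the data. Nor was it called under the other scalings of edgeR, with adjusted p of 0.333 with upper-quartile, 0.270 with RLE and 0.447 with library totals alone.

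Erbb3, at chr10:128567523-128589652, was the other gene without overlap between the groups. It had 7.10, 13.6 and 7.67 CPM in the controls and 14.4, 26.6 and 23.9 CPM in Ybx1-KO 1, 2 and 3. The lowest Ybx1-KO library and the highest control were close, with 95% Poisson intervals of 12.0 to 17.1 and 12.1 to 15.3 CPM, so their order was not detectable at this depth. The log2 difference was 1.19 (SE 0.455, edgeR adjusted p = 0.432), and the exact permutation test gave p = 0.1. With any 1 library left out it stayed between 1.01 and 1.55, and no alternative called it, with adjusted p between 0.117 and 0.787 over edgeR, limma-voom and DESeq2. Without Ybx1-KO 3 it was 1.09. Per length, Erbb3 had 1.46 ± 0.493 FPKM (SD, n = 3) in the controls and 3.86 ± 1.79 FPKM (SD, n = 3) in the Ybx1-KO group.

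**Figure D1:**
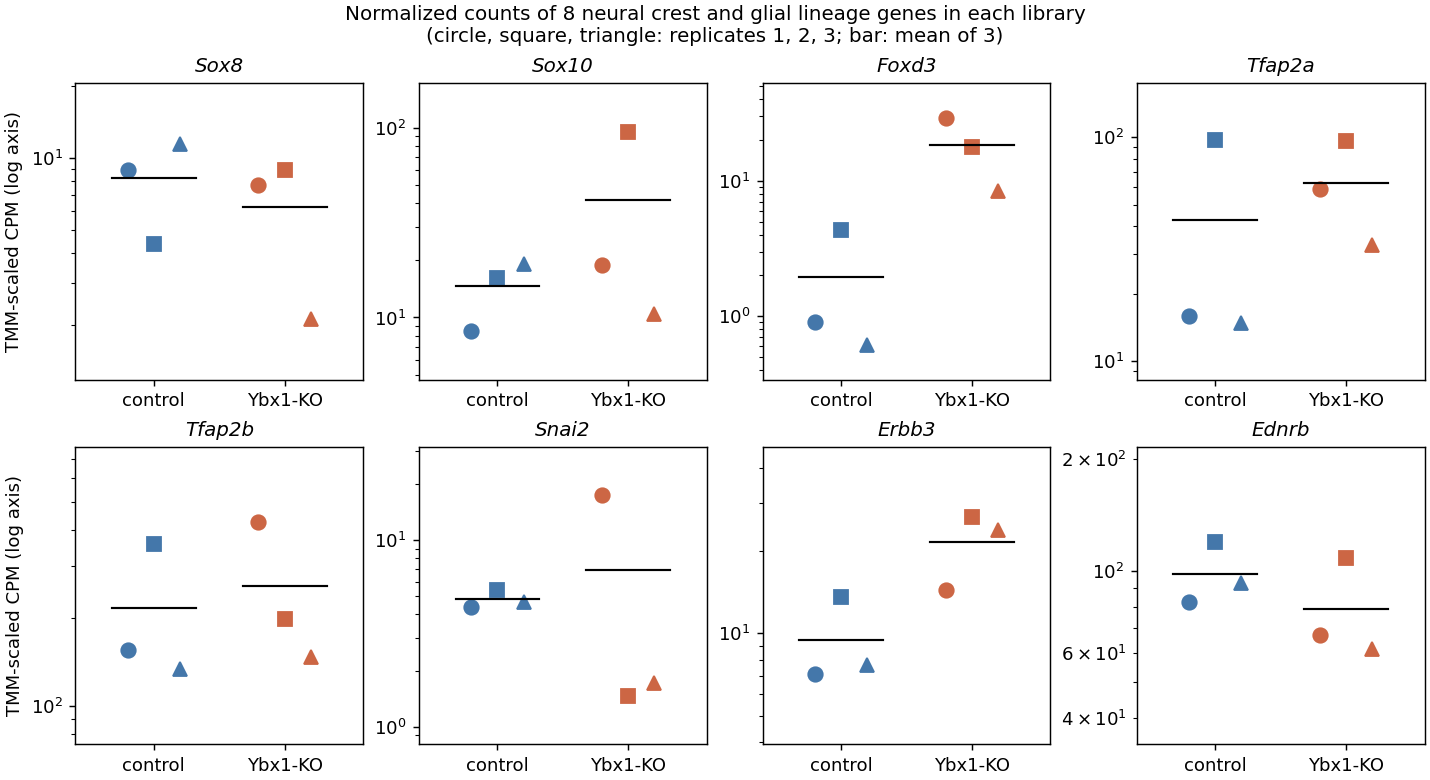
Each panel plots the TMM-scaled CPM of 1 gene (log axis, with its own range in each panel) in the 3 control and the 3 Ybx1-KO libraries, with a bar at each group mean and a circle, square and triangle for replicates 1, 2 and 3. The groups are apart for Foxd3 and Erbb3 and overlap for the other 6 genes, with Sox10 highest in Ybx1-KO 2 and Snai2 highest in Ybx1-KO 1.

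Sox10, at chr15:79154908-79165240, was high in a single library. It had 8.44, 16.1 and 19.2 CPM in controls 1, 2 and 3 and 18.9, 95.4 and 10.4 CPM in Ybx1-KO 1, 2 and 3. Ybx1-KO 1 and 3 lay within the control range and Ybx1-KO 2 lay far above it. The log2 difference was 1.52 (SE 0.628, edgeR adjusted p = 0.444, exact permutation p = 0.5), and it was 0.011 without Ybx1-KO 2 and 1.93 without Ybx1-KO 3.

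Sox8, at chr17:25565892-25570686, is a relative of Sox10 with overlapping roles in glia. Its levels were 8.92, 4.35 and 11.4 CPM in the controls and 7.71, 8.93 and 2.13 CPM in Ybx1-KO 1, 2 and 3. In Ybx1-KO 2, where Sox10 was high, Sox8 was within the control range, and its lowest value, from 15 counts, was in Ybx1-KO 3. The log2 difference was -0.39 (SE 0.661, edgeR adjusted p = 0.791) and -0.014 without Ybx1-KO 3. Sox9, the third gene of this SoxE family and a factor of crest and of glial progenitors, had 33.6, 82.9 and 45.9 CPM in the controls and 71.1, 117 and 42.1 CPM in the Ybx1-KO group. Its log2 difference was 0.50 (SE 0.452, edgeR adjusted p = 0.604), and the groups overlapped. Sox10 and Sox9 both had their highest value in Ybx1-KO 2, and Sox8 had its own in control 3.

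Among the relatives of Foxd3, Foxd1 is a factor of the diencephalon and of kidney stroma. It had 1.63, 3.79 and 1.57 CPM in the controls and 10.5, 8.41 and 3.84 CPM in Ybx1-KO 1, 2 and 3, so the groups did not overlap but control 2 and Ybx1-KO 3 were nearly level. Like Foxd3 it passed the filter through the Ybx1-KO group alone, with 0.425 FPKM in control and 1.497 FPKM in Ybx1-KO NPCs, and so had to differ in order to be tested. Its log2 difference was 1.70 (SE 0.786, edgeR adjusted p = 0.444). Foxd2 and Foxd4 did not pass the filter, with at most 33 and 4 counts in a library.

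Tfap2a, at chr13:40715302-40738376, and Tfap2b, at chr1:19208914-19238576, encode AP-2 factors that bind DNA as dimers. Tfap2a had 15.9, 96.8 and 14.8 CPM in controls 1, 2 and 3 and 58.7, 96.0 and 32.8 CPM in Ybx1-KO 1, 2 and 3. Controls 1 and 3 were below every Ybx1-KO library, and control 2 was level with the highest of them. Its log2 difference was 0.56 (SE 0.611, edgeR adjusted p = 0.673) and became 2.02 without control 2 (edgeR adjusted p = 0.127) and 0.86 without Ybx1-KO 3. Tfap2b was the most abundant of the 8 genes per length, and it had 156, 359 and 134 CPM in the controls and 426, 199 and 148 CPM in Ybx1-KO 1, 2 and 3. Its highest library was Ybx1-KO 1 and its second highest control 2. The log2 difference of Tfap2b was 0.25 (SE 0.516, edgeR adjusted p = 0.831) and was -0.32 without Ybx1-KO 1 and 0.53 without Ybx1-KO 3. The count of Tfap2a is uncertain in part, because the antisense gene Gm26688 overlaps it and held 26, 126 and 25 counts in the controls and 35, 71 and 82 in Ybx1-KO 1, 2 and 3. The libraries are stranded, but the strand setting of the counting is not given in the sources used here. Sox8 overlaps the antisense gene 2810468N07Rik in the same way, at 0 to 65 counts in a library.

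The other AP-2 genes were mostly lower in level. Tfap2d had 26.7, 15.8 and 15.7 CPM in the controls and 12.0, 4.05 and 9.81 CPM in the Ybx1-KO group, without overlap (log2 difference -1.17, SE 0.494, edgeR adjusted p = 0.444). Every Ybx1-KO library was below every control at 8.16% of the genes tested. Tfap2c had a log2 difference of -0.11 (SE 0.807) and Tfap2e one of 0.90 (SE 1.24), and the groups overlapped for both. Tfap2e passed the filter through the Ybx1-KO group alone.

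Snai2, at chr16:14705852-14709385, represses genes of epithelial adhesion as crest cells leave the tube. The controls were close together, at 4.41, 5.43 and 4.67 CPM, and the Ybx1-KO libraries were not, at 17.6, 1.45 and 1.71 CPM. Ybx1-KO 1 was above the controls, and Ybx1-KO 2 and 3, with 14 and 12 counts, were below them. Its log2 difference was 0.52 (SE 0.856, edgeR adjusted p = 0.785) and turned to -1.61 without Ybx1-KO 1 and to -0.40 by limma-voom, and it was 0.98 without Ybx1-KO 3. Snai1, its relative, had at most 4.98 CPM in any library and a log2 difference of 1.47 (SE 1.22, edgeR adjusted p = 0.571). Snai1 passed the filter through the Ybx1-KO group alone, and Snai3 held at most 1 count in a library.

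Ednrb, at chr14:103814625-103844402, had 82.4, 119 and 92.6 CPM in the controls and 66.9, 108 and 61.4 CPM in Ybx1-KO 1, 2 and 3. Ybx1-KO 1 and 3 lay below the controls and Ybx1-KO 2 between them. Its log2 difference was -0.32 (SE 0.392, edgeR adjusted p = 0.710) and remained below 0 in every alternative, from -0.61 to -0.10, with -0.19 without Ybx1-KO 3. Ednra, the related receptor of crest mesenchyme, had a log2 difference of 0.50 (SE 0.620, edgeR adjusted p = 0.710). The ligand gene Edn3 had at most 7.82 CPM and a log2 difference of 0.50 (SE 1.05). Ece1, whose enzyme cuts endothelin to its active form, had one of 0.20 (SE 0.384). The groups overlapped for all of these endothelin genes, and Edn3 passed the filter through the Ybx1-KO group alone.

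The partners of Erbb3 were examined beside it. Erbb2, which pairs with Erbb3 to signal, had 13.2, 10.4 and 13.6 CPM in the controls and 9.75, 20.6 and 17.1 CPM in Ybx1-KO 1, 2 and 3, with a log2 difference of 0.35 (SE 0.445, edgeR adjusted p = 0.721). Nrg1, the gene of their ligand neuregulin 1, had one of 0.15 (SE 0.379, edgeR adjusted p = 0.871). For both genes the groups overlapped. Erbb4, a neuregulin receptor of neurons and progenitors, had 90.9, 73.0 and 52.4 CPM in the controls and 40.5, 48.0 and 31.8 CPM in the Ybx1-KO group. Here every Ybx1-KO library was below every control, the opposite of Erbb3 (log2 difference -0.85, SE 0.380, edgeR adjusted p = 0.444). Egfr, the remaining gene of the family, had a log2 difference of -1.59 (SE 0.715, edgeR adjusted p = 0.444), and its groups overlapped. It passed the filter through the control group alone.

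**Figure D2:**
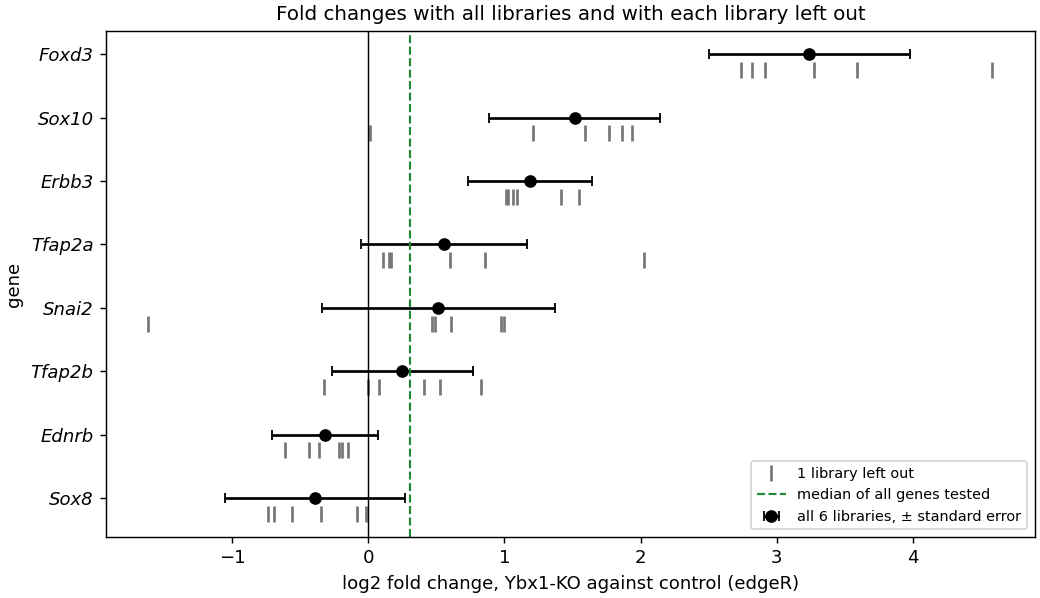
Points give the edgeR log2 fold change of each gene between Ybx1-KO and control NPCs with its standard error, and ticks below each point give it with 1 library left out. All ticks of Foxd3 (2.74 to 4.58) and Erbb3 (1.01 to 1.55) lie to the right of the dashed median of all genes tested, at 0.31 with all 6 libraries and -0.067 without Ybx1-KO 3, while the ticks of Snai2 and Tfap2b fall on both sides of 0.

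In level per length, the order of the 8 genes was led in both groups by Tfap2b, Ednrb, Tfap2a and Sox10. In control NPCs their means were 31.5, 21.4, 7.89 and 4.41 FPKM, followed by Sox8 at 2.48, Snai2 at 2.23, Erbb3 at 1.46 and Foxd3 at 0.763 FPKM. The ranges of neighbours in this order overlapped except between Ednrb and Tfap2a and between Snai2 and Erbb3. In Ybx1-KO NPCs the means were 42.4, 18.7, 12.2 and 11.4 FPKM, followed by Foxd3 at 7.98, Erbb3 at 3.86, Snai2 at 3.60 and Sox8 at 1.89 FPKM. There, Tfap2b was apart from Ednrb and Ednrb from Tfap2a, and all lower neighbours overlapped.

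Described as a list, 6 of the 8 genes had a positive log2 difference, as did 61.3% of all genes tested. Their median was 0.54, against 0.31 for all genes tested and 0.051 for the protein-coding ones. Without Ybx1-KO 3 the median of the 8 genes was 0.92 and that of all genes tested -0.067, so the level they are set against rests on that library. Summed over the 8 genes, the libraries held 284, 619 and 285 CPM in control and 640, 553 and 288 CPM in Ybx1-KO NPCs, so control 2 was near Ybx1-KO 1 and 2 while Ybx1-KO 3 was near controls 1 and 3. Much of each sum was Tfap2b. Over the other 7 genes it was 128, 260 and 151 CPM in control and 214, 354 and 141 CPM in Ybx1-KO NPCs, where Ybx1-KO 2 was highest and control 2 stood above Ybx1-KO 1. Ybx1-KO 1 was above every control at 4 of the 8 genes, Ybx1-KO 2 at 3 and Ybx1-KO 3 at 2. In the other direction, Ybx1-KO 3 was below every control at 3 genes and each of the other Ybx1-KO libraries at 1.

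Genes that act with the 8 were taken from lists of crest biology. Of 15 border and specifier factors, 9 had a positive and 6 a negative log2 difference (median 0.21), and 0 were called. Snai1 and Ets1 passed the filter through the Ybx1-KO group alone. Msx1, Msx2 and Id3, which respond to the dorsal signal BMP, were above every control in all 3 Ybx1-KO libraries. Id3, the most abundant of the list per length, had 22.2, 16.2 and 18.5 CPM in the controls and 177, 37.9 and 37.8 CPM in Ybx1-KO 1, 2 and 3 (log2 difference 2.15, SE 0.541, edgeR adjusted p = 0.267). Zic1, a factor of the neural plate border, had a log2 difference of -0.64 (SE 0.458, edgeR adjusted p = 0.523). The median of this list was 0.79 without control 2 and 0.50 without Ybx1-KO 3.

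Of 13 receptors and ligands of crest and glia, 10 had a positive log2 difference (median 0.47, and 0.033 without Ybx1-KO 2) and 0 were called. Edn3 and Ret passed the filter through the Ybx1-KO group alone and Egfr through the control group alone. Ngfr, the low-affinity neurotrophin receptor by which crest cells are often sorted, was the most abundant per length. It had 18.4, 65.2 and 27.1 CPM in the controls and 98.2, 169 and 41.9 CPM in Ybx1-KO 1, 2 and 3, with its highest value in Ybx1-KO 2, as for Sox10 (log2 difference 1.48, SE 0.535, edgeR adjusted p = 0.425). Control 2 was above Ybx1-KO 3. Gfra1, a receptor for the growth factor Gdnf, had a log2 difference of 0.47 (SE 0.403, edgeR adjusted p = 0.583). At an unadjusted p below 0.05, 2 genes of this list were higher, Ngfr and Itga4, and 3 were lower, Erbb4, Egfr and Kit. Kit, the receptor of stem cell factor in melanoblasts, had 59.4, 48.3 and 39.1 CPM in the controls and 27.7, 25.1 and 27.6 CPM in Ybx1-KO 1, 2 and 3, each below every control (log2 difference -0.87, SE 0.363, edgeR adjusted p = 0.444). Itga4, an integrin subunit of migrating crest, was above every control in all 3 Ybx1-KO libraries (log2 difference 0.88, SE 0.396, edgeR adjusted p = 0.444).

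Of the 14 Schwann precursor and glial markers 8 passed the filter, 3 with a positive and 5 with a negative log2 difference (median -0.26), and 0 were called. The most abundant, Fabp7, is shared with radial glia and had 908, 469 and 895 CPM in the controls and 855, 207 and 379 CPM in Ybx1-KO 1, 2 and 3. The sum of the list, 1021, 583 and 1032 CPM in control and 979, 362 and 476 CPM in Ybx1-KO NPCs, was mostly Fabp7. Cnp, a myelin enzyme also expressed more widely, had a log2 difference of -0.34 (SE 0.370). Pou3f1, which drives Schwann cells toward myelination and is also expressed in the brain, had 13.48, 22.0 and 16.7 CPM in the controls and 58.3, 49.6 and 14.2 CPM in Ybx1-KO 1, 2 and 3 (log2 difference 1.23, SE 0.473, edgeR adjusted p = 0.433). In Ybx1-KO 1, 4 of the 14 genes were at 0 counts, Dhh, Gjc3, Gfap and Art3, which at that depth allows each up to 0.354 CPM before TMM scaling.

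The later crest fates were followed too. All 13 markers of peripheral neurons passed the filter, 11 with a positive log2 difference (median 1.46), and 0 were called. Of these, 4 (Phox2a, Hand2, Dbh and Tlx2) passed through the Ybx1-KO group alone and 1 (Prrxl1) through the control group alone, so their direction was fixed by the filter. Their sum was 70.7, 265 and 101 CPM in control and 223, 270 and 130 CPM in Ybx1-KO NPCs. Pou4f1, their most abundant gene per length and also a gene of dorsal spinal and midbrain neurons, had 35.0, 126 and 42.0 CPM in the controls and 67.1, 102 and 22.7 CPM in Ybx1-KO 1, 2 and 3, and the groups overlapped. Neurog1, a proneural factor of sensory neurons and of the neural tube, had 2.59, 11.6 and 7.93 CPM in the controls and 21.9, 35.6 and 20.3 CPM in the Ybx1-KO group, without overlap (log2 difference 1.81, SE 0.523, edgeR adjusted p = 0.349). Isl1, which marks sensory and motor neurons, had a log2 difference of 0.28 (SE 0.449). None of the 7 melanoblast markers passed the filter, and Pmel, Mitf and Dct, the most abundant per length, had at most 5.52 CPM in any library. Their summed level was 5.24 to 11.1 CPM in the controls, 1.70 and 5.61 CPM in Ybx1-KO 1 and 2 and 22.2 CPM in Ybx1-KO 3, with Mlana at 0 counts in 5 libraries.

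Markers of other tissues moved with some of these values, and their part in the results was not tested. The 12 Hox genes of the caudal neural tube summed to 56.2, 527 and 143 CPM in controls 1, 2 and 3 and to 708, 697 and 294 CPM in Ybx1-KO 1, 2 and 3, led by Hoxb8, Hoxc4 and Hoxb5. All 12 had a positive log2 difference, with a median of 1.35 against 0.54 for the 8 lineage genes. By edgeR 7 were higher at an unadjusted p below 0.05 and 0 were called, and the groups overlapped for each. Hoxd4 passed the filter through the Ybx1-KO group alone. Control 2, the highest control for 6 of the 8 lineage genes (all but Sox8 and Sox10), was also the control richest in Hox transcripts. Ybx1-KO 3 held less Hox transcript than control 2. Of the lineage genes, Foxd3 and Erbb3 were higher in Ybx1-KO 3 than in control 2. Sox8, Sox10, Tfap2a, Tfap2b, Snai2 and Ednrb were lower in Ybx1-KO 3 than in control 2. Whether the Hox content of a library bears on any of them was not tested. The 8 markers of dorsal inhibitory neurons, led by Lhx1, Gad2 and Lhx5, summed to 272, 629 and 240 CPM in control and 608, 589 and 190 CPM in Ybx1-KO NPCs, so their 3 highest libraries were those in which Tfap2a was highest. Of the 8, 6 had a positive and 2 a negative log2 difference (median 0.78, and 2.02 without control 2), and 0 were called. Lhx1 had 29.9, 213 and 38.0 CPM in the controls and 286, 213 and 53.4 CPM in Ybx1-KO 1, 2 and 3 (log2 difference 0.97, SE 0.683), while Gad1 and Gad2, the enzymes of GABA synthesis, had log2 differences of -0.63 (SE 0.387) and -0.80 (SE 0.450). Every Ybx1-KO library was below every control for Gad1 and above every control for Ptf1a. Ptf1a passed the filter through the Ybx1-KO group alone. Lhx5 had a log2 difference of 1.15 (SE 0.535, edgeR adjusted p = 0.444), and its groups overlapped.

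The oligodendrocyte precursor list, another source of Sox10, summed to 172, 175.1 and 149 CPM in control and 129, 218 and 113 CPM in Ybx1-KO NPCs, most of it Sox9 and Sox6. Of its members that passed the filter, 3 had a positive and 3 a negative log2 difference. Olig1 had 0.936 to 9.09 CPM in the controls and 1.59 to 2.28 CPM in the Ybx1-KO group. Olig2 had 7.48, 4.35 and 10.2 CPM in the controls and 8.16, 11.1 and 3.84 CPM in Ybx1-KO 1, 2 and 3. Nkx2-2, a factor of ventral progenitors and of this lineage, had 2.78, 9.41 and 4.01 CPM in the controls and 19.6, 19.8 and 7.53 CPM in Ybx1-KO 1, 2 and 3 (log2 difference 1.54, SE 0.586, edgeR adjusted p = 0.432). Sox6, a factor of this lineage and of progenitors, had 77.5, 58.4 and 65.9 CPM in the controls and 20.4, 54.9 and 31.1 CPM in Ybx1-KO 1, 2 and 3, each below every control (log2 difference -0.92, SE 0.411, edgeR adjusted p = 0.444). Of the 7 genes, Olig2, Nkx2-2 and Sox9 had their highest value in Ybx1-KO 2, the library with 95.4 CPM of Sox10, with Nkx2-2 nearly level in Ybx1-KO 1. The other 4 had theirs elsewhere, Pdgfra and Sox6 in control 1, Olig1 in control 3 and Cspg4 in Ybx1-KO 3. Olig1 passed the filter through the control group alone. Mesenchyme markers, led by Col3a1, Col1a1 and Col1a2, were highest in control 1, with 906 CPM summed against 162 and 232 CPM in the other controls and 84.1 to 165 CPM in the Ybx1-KO group. The median log2 difference of the 8 that passed the filter was -1.79, and -0.58 without control 1.

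**Figure D3:**
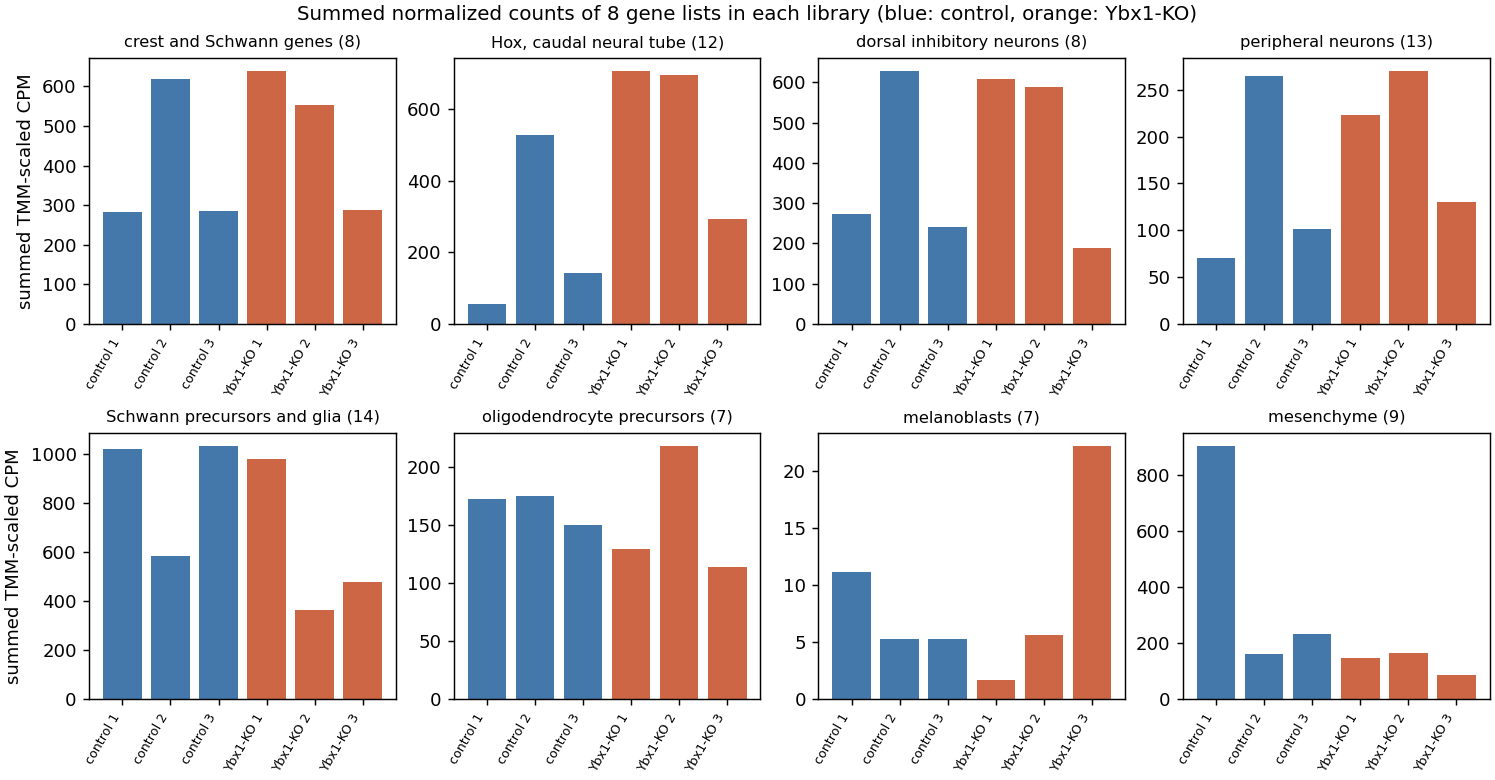
Bars give the summed TMM-scaled CPM of 8 gene lists in each of the 6 libraries (axes start at 0 and differ between panels). Control 2 stands with Ybx1-KO 1 and 2 for the crest and Schwann genes (619 CPM), the caudal Hox genes (527 CPM) and the dorsal inhibitory neuron markers (629 CPM), while the mesenchyme sum is highest in control 1.

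The remaining cell types were sparse or uneven. Erythroid markers, led by Hbb-y, Hbb-bs and Hba-x, summed to 1219, 985 and 523 CPM in control and 1234, 492 and 204 CPM in Ybx1-KO NPCs, and their members differed in direction. The adult globin gene Hbb-bs had 603, 16.3 and 191 CPM in the controls and 20.3, 6.33 and 4.97 CPM in Ybx1-KO 1, 2 and 3, and was 11th among all genes tested by unadjusted p (log2 difference -4.67, SE 0.932, edgeR adjusted p = 0.167). The embryonic globin gene Hbb-bh1 had 0.815, 16.4 and 0.711 CPM in the controls and 52.4, 20.7 and 10.1 CPM in the Ybx1-KO group (log2 difference 2.21, SE 0.909, edgeR adjusted p = 0.444). Control 2 lay within the Ybx1-KO range for both globins. The 6 forebrain markers, led by Lhx2, Otx2 and Emx2, summed to 384, 203 and 482 CPM in control and 318, 253 and 102 CPM in Ybx1-KO NPCs. Surface ectoderm markers, led by Krt5, Krt18 and Epcam, summed to at most 46.3 CPM, endothelial markers, led by Cdh5, Pecam1 and Cldn5, to at most 58.1 CPM and microglial markers, led by Csf1r, Cx3cr1 and Aif1, to at most 34.1 CPM, in all of these cases in Ybx1-KO 3. The sorted cells were also described by 9 progenitor markers, led by Fabp7, Vim and Msi1, which summed to 1572, 1620 and 1734 CPM in control and 2139, 1882 and 1217 CPM in Ybx1-KO NPCs, with Sox2 at 17.5 to 50.6 CPM. Neuron markers, led by Tubb3, Stmn2 and Dcx, summed to 2935 to 4342 CPM in the controls and 1170 to 3168 CPM in the Ybx1-KO group. Their sum was above the progenitor sum in every library except Ybx1-KO 3, so transcripts of neurons were abundant in the sorted cells. Of the progenitor markers, 6 had a positive and 3 a negative log2 difference (median 0.24). Of the neuron markers, 1 had a positive and 5 a negative log2 difference (median -0.54), and 0 were called in either list.

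The genes most like Foxd3 and Sox10 across the 6 libraries were sought among 10894 protein-coding genes with a mean of at least 5 CPM, by Pearson's r of log2(CPM + 0.5). These are descriptions over 6 libraries that share their depth and composition. For Foxd3 they were Slc45a3 (r = 0.997), a transporter, Nes (0.996), the intermediate filament of neural progenitors, and Hoxb2 (0.994), a hindbrain factor. Hoxb2 had 3.17, 14.2 and 3.00 CPM in the controls and 59.6, 36.1 and 24.9 CPM in Ybx1-KO 1, 2 and 3, in the same order of libraries as Foxd3. For Sox10 they were Fem1a (0.986), Slc3a2 (0.986) and Syvn1 (0.985), with log2 differences of 0.22, 0.23 and 0.43. None of the other 7 lineage genes was among these.

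**Figure D4:**
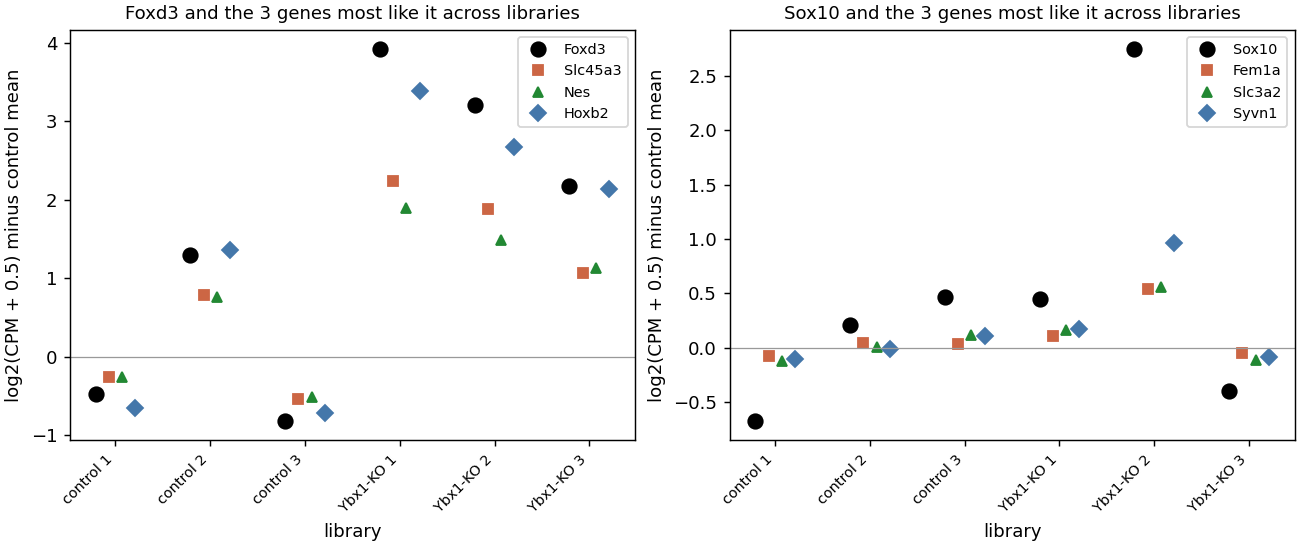
Points give log2(CPM + 0.5) minus the control mean in each library for Foxd3 (left) and Sox10 (right) with the 3 genes whose levels followed each most closely over the 6 libraries. Foxd3 and Hoxb2 move over a like range, with control 2 above the other controls and Ybx1-KO 1 highest, while Sox10 exceeds its 3 neighbours widely in Ybx1-KO 2.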

How the data were processed

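Total RNA of Sox2-sorted NPCs was made into stranded libraries and sequenced as read pairs of 100 cycles. The authors mapped the pairs, counted them on genes with HTSeq 0.6.1p1 and deposited raw counts by gene symbol for each library, without normalization or pooling. The submitters' processing notes name mm10 and GRCm38.p5. The aligner and strand setting are not given in the sources used here. The tallies of pairs outside genes were used only to describe libraries.

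Exon-union lengths and coordinates came from GENCODE M21 (GRCm38) and covered 92.7% of the 51733 symbols. FPKM used each library's total on genes, and genes were tested where the mean of at least one genotype exceeded 1 FPKM. The test was edgeR 4.0.16 (TMM, quasi-likelihood, no covariate, Benjamini-Hochberg adjustment) in R 4.3.3. TMM factors ran from 0.727 in Ybx1-KO 2 to 1.57 in Ybx1-KO 3. Calls used the study's thresholds, an adjusted p under 0.05 with a fold change over 1.5. Limma 3.58.1 (voom, the study's tool), DESeq2 1.42.0, other scalings and filters, and leaving out each library were alternatives. Permutation tests were exact and two-sided, on log2(CPM + 0.5), and intervals were exact Poisson at 95%. On simulated data for this comparison, edgeR recovered 32.7% of 199 genes changed 4-fold among 21120 and 60.8% of 199 changed 8-fold among 21125. It made 13 and 32 false calls there. DESeq2 recovered 34.2% and 62.3% with 70 and 76 false calls, and limma-voom 6.53% and 41.7% with 10 and 15. At a depth of 3 counts, a gene stood at 0.126 to 0.632 CPM. Every pair of libraries differed by more than sampling noise. The lineage genes and lists were chosen with earlier results of these data known. Beside the 8 genes, those named were Ybx1, the family relatives, Edn3, Ece1 and Nrg1, the 3 most abundant per length of each list, and the 3 genes most like Foxd3 and Sox10; genes without overlap and defining markers were added after their values were seen. Some genes of these lists are not reported here.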

Additional observations from a re-analysis of the deposited data

How the results depend on the processing

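Of the 8 lineage genes, only Foxd3 was called in any alternative. Of the 8, 1 was called by DESeq2, where 214 genes were called in all, and 1 by edgeR without a filter on low counts, where 193 were called. With 1 library left out in turn, between 0 and 1 of the 8 genes and between 0 and 419 genes in all were called. The most calls came without Ybx1-KO 2 (419), followed by those without Ybx1-KO 1 (107), control 2 (71) and Ybx1-KO 3 (46). The sign changed for Snai2, Tfap2b and Sox8. Snai2 was -0.40 by limma-voom and ran from -1.61 (without Ybx1-KO 1) to 1.00 with 1 library left out. Tfap2b was -0.00068 without control 3 and ran from -0.32 (without Ybx1-KO 1) to 0.83. Sox8 was 0.088 with a filter on CPM above 1 and without Ybx1-KO 3, a setting chosen after seeing the data. The cause was not tested. The median of the 8 genes ran from 0.19 to 1.19 with 1 library left out. The median of all genes tested moved by 0.23 on scaling by library totals alone, by 0.39 with no filter, by -0.23 with a filter on CPM above 1 and by -0.38 without Ybx1-KO 3, and no scaling changed the sign of any of the 8. No paired analysis was possible because the groups share no number that pairs a control with a Ybx1-KO library. Ybx1-KO 3 had the fewest counts, which limits the low levels of Sox8 and Snai2 there.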
